A study of Caenorhabditis elegans with 2 samples.

Results

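The 35 genes described here code for the ligands, receptors, adhesion proteins and cytoplasmic effectors that steer growing axons and hold neurons together in C. elegans. They were chosen by name from the netrin, Slit, semaphorin, ephrin, cadherin and immunoglobulin adhesion families and from the cytoplasmic proteins that act with them. Earlier results of these data were known when they were chosen, so their shares beside those of other genes describe this list only. They are 35 of 19973 nuclear protein-coding genes in the annotation. The data are the peak positions of SOX-2 in chromatin immunoprecipitation followed by sequencing (ChIP-seq) of whole late embryos, aged 3.5 hours and obtained by egg bleaching. The strain, RW12244, is a single CRISPR line whose own sox-2 gene carries a TY1, EGFP and 3xFLAG tag, and the tagged protein was pulled down with an anti-GFP antibody. There was 1 group of 2 biological replicates, both carrying the tag, and no untagged or mutant embryos were analysed here. The deposited lists hold peaks and no read counts, so the depth of the libraries is unknown, and because whole embryos were used, few cells with much SOX-2 at a site and many cells with little cannot be told apart.

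Axons are guided by secreted and membrane-bound cues, such as netrin, Slit, semaphorins and ephrins, which are read by receptors on the growth cone and passed on to actin and microtubule regulators. Cadherins and immunoglobulin-type proteins such as the L1CAM family hold cells and nerve fibres in place once they are there. SOX-2 is a transcription factor of the SOX B family, known in vertebrates as a factor of neural progenitors and in C. elegans for roles in particular neuronal lineages. Its HMG box binds short sequences with the core ATTGT in the minor groove and bends the DNA, and in mammals it often binds beside POU factors, whose site is the octamer.

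The sequences below are those at 7 of the 11 summits of these genes in the authors' thresholded list. Those at the thresholded summits of hmr-1, mab-20, unc-33 and unc-44 are not shown. The 7 include windows that hold the SOX core ATTGT within 50 bp of the summit, and the unc-76 window, which lacks it. Each runs for 101 bp with the summit at its centre, on the forward strand of ce11. Capitals mark the word CTATTGT or its reverse complement, other copies of ATTGT on either strand, and the octamer ATGCAAAT.
sax-3, intron 1, X:3465232-3465332: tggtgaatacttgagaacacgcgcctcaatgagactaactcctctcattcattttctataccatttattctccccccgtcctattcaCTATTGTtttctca
vab-1, intron 5, II:4585631-4585731: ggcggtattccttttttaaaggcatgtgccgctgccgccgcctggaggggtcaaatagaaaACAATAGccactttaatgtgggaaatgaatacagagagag
plx-2, upstream of the gene, II:14427132-14427232: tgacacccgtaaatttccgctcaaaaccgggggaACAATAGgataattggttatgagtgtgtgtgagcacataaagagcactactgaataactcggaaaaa
sax-7, intron 6, IV:8070982-8071082: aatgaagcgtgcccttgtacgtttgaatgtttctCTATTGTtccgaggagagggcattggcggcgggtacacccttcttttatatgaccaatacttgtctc
vab-1, intron 5, II:4582889-4582989: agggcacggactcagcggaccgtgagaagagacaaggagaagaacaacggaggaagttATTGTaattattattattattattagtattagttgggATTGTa
fmi-1, intron 8, V:13024640-13024740: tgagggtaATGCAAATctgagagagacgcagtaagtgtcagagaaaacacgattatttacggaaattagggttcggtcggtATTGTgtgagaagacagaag
unc-76, promoter, V:15071494-15071594: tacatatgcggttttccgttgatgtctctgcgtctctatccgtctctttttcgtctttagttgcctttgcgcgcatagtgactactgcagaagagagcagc
The first 4 hold CTATTGT, the second vab-1 summit and fmi-1 hold ATTGT without the 2 bases in front, fmi-1 also holds the octamer, and the unc-76 promoter holds none of these words.

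SOX-2 summits lay at most of these genes, and a minority of the genes had a summit that passed the authors' threshold. A summit was counted for a gene when it lay inside the gene or within 5000 bp of any of its annotated 5′ ends. In the ranked list made from both replicates, 32 of the 35 genes (91.4%, Wilson 95% interval 77.6 to 97.0) had at least 1 summit, against 53% of all nuclear protein-coding genes. The thresholded list of 677 peaks holds those that the authors kept by the irreproducible discovery rate, or IDR. This rate compares the ranks of peaks in repeat lists and estimates the share of peaks that are not reproducible. In the thresholded list, 10 of the 35 genes (28.6%, 16.3 to 45.1) had a summit, against 7.09% of all genes. The 10 genes were sax-3, mab-20, plx-2, vab-1, fmi-1, hmr-1, sax-7, unc-76, unc-44 and unc-33. A further 22 genes had ranked summits below the threshold alone, and 3 genes, unc-129, slt-1 and efn-3, had none. Without summits within 500 bp of a tRNA gene, the number was 9 genes (25.7%), against 6.04% of all genes. It was 6 in the list of replicate 1 alone and 9 in that of replicate 2 alone. It was also 6 where a summit counted only for the gene with the nearest 5′ end within 5000 bp, and 4 among peaks at or above the median signal. These intervals cover counting error over genes only, and peaks that come from the same libraries do not stand for replicates. The intervals do not cover the choice of members, which was made with earlier results of these data known.

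Guidance and adhesion genes are long, and longer genes offer more room for a summit. Their median length was 11.2 kb, against 2.03 kb for all nuclear protein-coding genes, and the median search window was 16.7 kb, against 10.001 kb. Among the 18 members whose window was at least as long as that median, 6 (33.3%, 16.3 to 56.3) had a thresholded summit, against 13.2% of all genes with windows that long. Per window length, the members held 22.03 ranked summits per 100 kb, against 8.48 for all protein-coding genes, a ratio of 2.60. For thresholded summits the density was 1.52 per 100 kb, against 0.658, a ratio of 2.32, and away from tRNA genes it was 1.39, against 0.539. The 10 genes with a thresholded summit had a median length of 14.2 kb, against 8.997 kb for the other members.

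**Figure D1:**
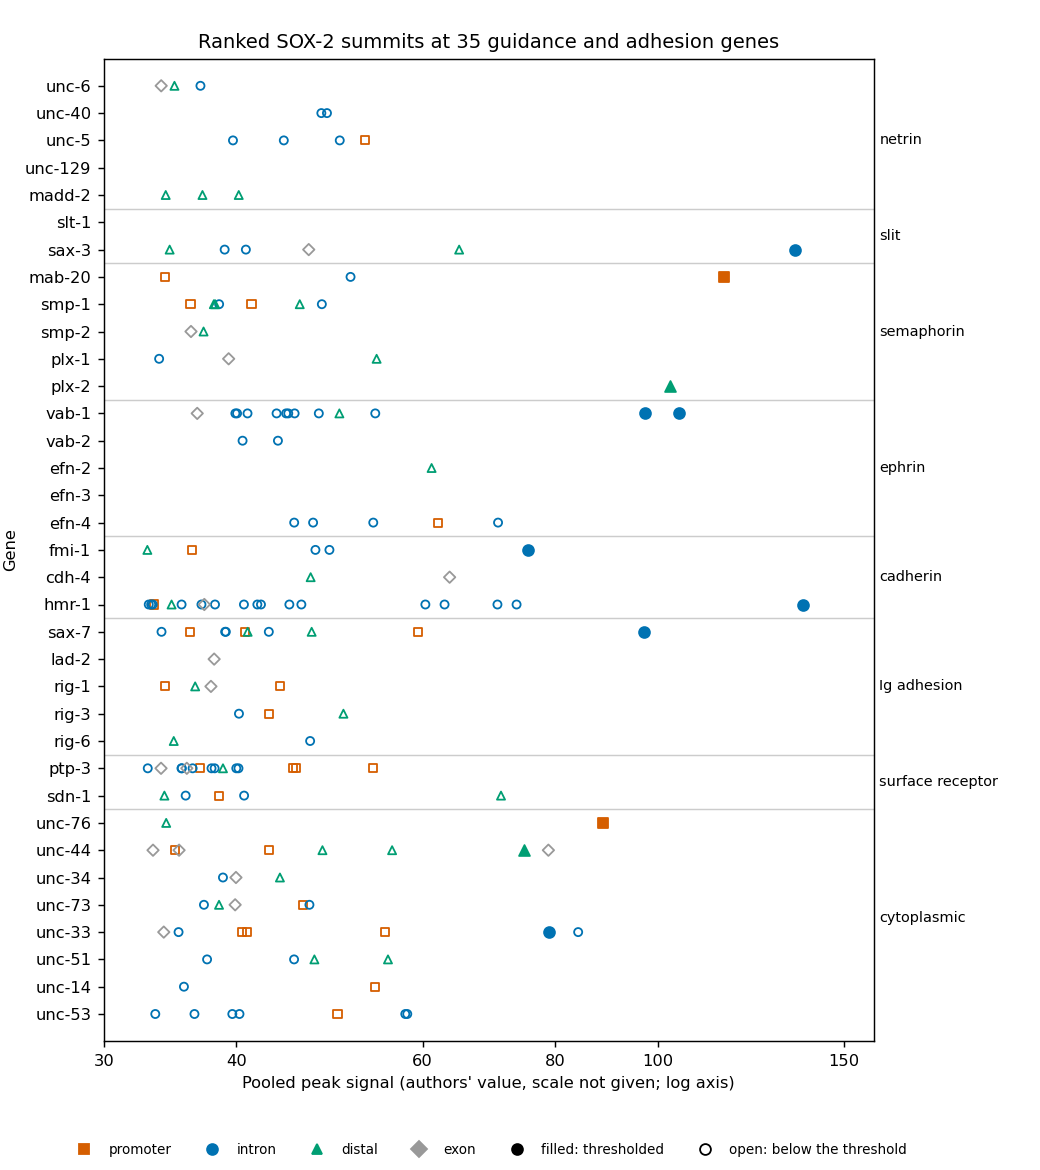
Pooled peak signal (x axis, log scale, the authors' value on a scale that was not stated) of each of the 159 ranked summits at the 35 genes (y axis), grouped by protein role; marker shapes and colours give the summit's position, filled markers are in the thresholded list and open ones are not. The 11 filled summits lie between 74.8 and 137, and 2 open ones, at unc-33 and unc-44, lie within that range.

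The netrin genes had ranked summits and no thresholded one. unc-6, the secreted netrin, had 3 ranked summits, the strongest in intron 7 with a pooled signal of 37.0 and replicate signals of 13.9 in replicate 1 and 20.2 in replicate 2. unc-40, the DCC-family netrin receptor, had 2, in introns 3 and 2, with pooled signals of 48.7 and 48.1. unc-5, the repulsive netrin receptor, had 4, led by a promoter summit 309 bp upstream of a 5′ end with a pooled signal of 52.95, for which replicate 1 gave 14.4 and replicate 2 gave 34.1. At this unc-5 summit the replicates were far apart. The unc-5 summit with the lowest IDR, 13.0%, was intronic, with replicate signals of 28.8 and 24.1. madd-2, a TRIM protein that acts with UNC-40, had 3 ranked summits upstream of its 5′ ends, with pooled signals from 34.3 to 40.2, and unc-129, a TGF-β-family guidance cue, had none.

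In the Slit pair, the receptor gene carried a strong summit and the ligand gene no ranked one. sax-3, the Robo-family Slit receptor, had a thresholded peak at X:3465140-3465423 with its summit in intron 1 of 11, 643 bp downstream of the nearest sax-3 5′ end. Its pooled signal was 135, rank 252 of the ranked list, with an IDR of 0.0131%. Replicate 1 gave 71.2 and replicate 2 gave 66.5, a mean of 68.8 ± 3.36 (SD, n = 2), and the peak passed in each replicate alone. Of the 11 thresholded summits, this one and that of hmr-1 had the highest replicate means and the closest replicate values. A gene annotated as ZK377.15 has a 5′ end 603 bp from the same summit, slightly closer than that of sax-3. sax-3 had 5 further ranked summits, the strongest 3663 bp upstream with a pooled signal of 65.0, replicate signals of 32.0 and 27.3, and an IDR of 2.50%. slt-1, the Slit ligand, had no ranked summit.

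Among semaphorin genes, a ligand and a plexin had thresholded summits. mab-20, a secreted class 2 semaphorin that keeps cells from making wrong contacts, had a peak at I:1651350-1651633 with its summit 35 bp upstream of its 5′ end. Its pooled signal was 115.5, with 47.6 in replicate 1 and 66.1 in replicate 2, a mean of 56.9 ± 13.1, and it passed in both. plx-2, a plexin that has been placed with mab-20 in genetic studies of C. elegans, had a single ranked summit, and this one was thresholded. It lay 2291 bp upstream of the plx-2 5′ end at II:14427040-14427323, with a pooled signal of 103, and the replicates gave 58.3 and 42.8, a mean of 50.5 ± 10.9, both passing. Both genes thus had a peak that each replicate passed alone. The transmembrane class 1 semaphorins and their receptor had ranked summits below the threshold, with the strongest at 48.2 for smp-1, 37.3 for smp-2 and 54.3 for plx-1.

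Within the ephrin group, the receptor gene had 2 thresholded summits and the ligand genes none. vab-1, the Eph receptor tyrosine kinase, had 13 ranked summits, and both thresholded ones lay in intron 5 of 9, which is 3536 bp long. The summit at II:4585539-4585822, 13681 bp downstream of the vab-1 5′ end, had a pooled signal of 105, with 60.6 in replicate 1 and 36.5 in replicate 2, and passed in replicate 1 alone. The summit at II:4582797-4583080, 10939 bp downstream, had a pooled signal of 97.4, with 41.98 and 59.9, and passed in both. The replicates ranked these neighbouring summits in opposite order, and their means of 48.5 ± 17.0 and 50.95 ± 12.7 differed by less than either SD. For the first of them, the nearest protein-coding 5′ end was that of ipla-1, 9811 bp away. Among the ligands of this family, efn-4 reached 70.7 in intron 1 (30.5 and 36.6, IDR 38.3%), and efn-2 reached 61.2 at 4411 bp upstream (38.04 and 23.01, IDR 41.7%). vab-2, an ephrin ligand of VAB-1, had 2 ranked summits, the stronger at 43.8, and efn-3 had none.

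The cadherin genes held the strongest summit of all 35. hmr-1, the classical cadherin of epithelial junctions, which also has a longer neuronal form, had a peak at I:11124817-11124892 in intron 6 of 30 of its longest transcript, 9798 bp downstream of the nearest hmr-1 5′ end. Its pooled signal was 137, rank 241, and the replicates gave 68.8 and 65.4, a mean of 67.1 ± 2.37, with an IDR of 0.0190%. The protein-coding 5′ end nearest to it, 1129 bp away, was that of Y52B11B.1. hmr-1 is also the longest of the members, and its 19 ranked summits were the most at any of them. Of its other summits, those with pooled signals of 73.6 and 70.6 had IDR values of 2.07% and 4.14%, above the threshold of 1%. fmi-1, a Flamingo-family cadherin of nerve cord axons, had a thresholded summit in intron 8 of 24 at V:13024548-13024831, 1503 bp upstream of an internal 5′ end. Its pooled signal was 75.4, and replicate 1 gave 52.5 and replicate 2 gave 23.7, a mean of 38.1 ± 20.4. The fmi-1 peak had the widest spread between replicates of the 11, passed in replicate 1 alone and was missing from the authors' conservative list. cdh-4, the Fat-family cadherin, reached 63.6 in a coding exon (34.9 and 30.4, IDR 6.34%).

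Of the immunoglobulin-type adhesion genes, sax-7 was the one with a thresholded summit. sax-7, the L1CAM-family protein that keeps neurons in position, had a peak in intron 6 of 16 at IV:8070890-8071173, 3930 bp downstream of an internal 5′ end. Its pooled signal was 97.0, with 41.5 in replicate 1 and 57.4 in replicate 2, a mean of 49.5 ± 11.3, and it passed in replicate 2 alone. sax-7 had 9 further ranked summits, the strongest 59.4 at 263 bp upstream of a 5′ end. Its relative lad-2 had 1 ranked summit with a pooled signal of 38.1, in a coding exon. The immunoglobulin proteins rig-1 and rig-3 and the contactin rig-6 peaked at 44.03, 50.5 and 47.0. The receptor phosphatase ptp-3 and the syndecan sdn-1 likewise stayed below the threshold. ptp-3 had 15 ranked summits, the strongest at 53.9 and 3 bp from a 5′ end, while sdn-1 reached 71.1 at 4392 bp upstream with a replicate 2 signal of 38.9, no replicate 1 peak within 100 bp and an IDR of 71.3%.

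Among the 8 cytoplasmic genes, unc-76, unc-33 and unc-44 had thresholded summits, each passed in replicate 2 alone. unc-76, a FEZ-family protein of axon bundling, had a promoter peak at V:15071402-15071685, 216 bp upstream of a 5′ end, with a pooled signal of 88.9 and replicate signals of 34.7 and 53.3, a mean of 44.03 ± 13.2. unc-33, the CRMP-family protein that organises neuronal microtubules, had a thresholded peak in intron 9 of 9 at IV:3524703-3524986, with a pooled signal of 78.9 and replicate signals of 35.1 and 45.2, a mean of 40.1 ± 7.19. This summit lies over a tRNA gene inside the intron, and it is the one thresholded summit of the members near such a gene. unc-44, the ankyrin on which UNC-33 depends for its place in axons, had a peak at IV:5970616-5970899, 4799 bp upstream of its first 5′ end, with a pooled signal of 74.8 and replicate signals of 31.2 and 41.1, a mean of 36.2 ± 6.99. It was the weakest of the 11 and was not in the conservative list.

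unc-33 and unc-44 each had another summit in the conservative list that was absent from the thresholded one. That of unc-33 lay in intron 7, with a pooled signal of 84.1, replicate signals of 42.4 and 46.7 and an IDR of 6.67%. That of unc-44 lay in a coding exon, with a pooled signal of 78.9, replicate signals of 38.8 and 33.9 and an IDR of 28.0%. Both IDR values are from the ranked list used here. The conservative list was thresholded from the series' other ranked list, so these values are not the ones by which its peaks were kept. The pooled signals and replicate means of both summits were at or above those of the thresholded summits at the same genes. The other cytoplasmic genes had ranked summits below the threshold. unc-53, a NAV-family cytoskeletal regulator, reached 58.0 in intron 1 (32.0 and 21.1, IDR 45.9%), and had another intronic summit at 57.8 with an IDR of 6.88%. unc-51, an ULK-family kinase, reached 55.6 at 1343 bp upstream (28.9 and 22.9, IDR 6.62%). The strongest summits of unc-14, which binds UNC-51, of the Trio-family exchange factor unc-73 and of the Ena/VASP-family actin regulator unc-34 were 54.05, 46.9 and 43.99.

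**Figure D2:**
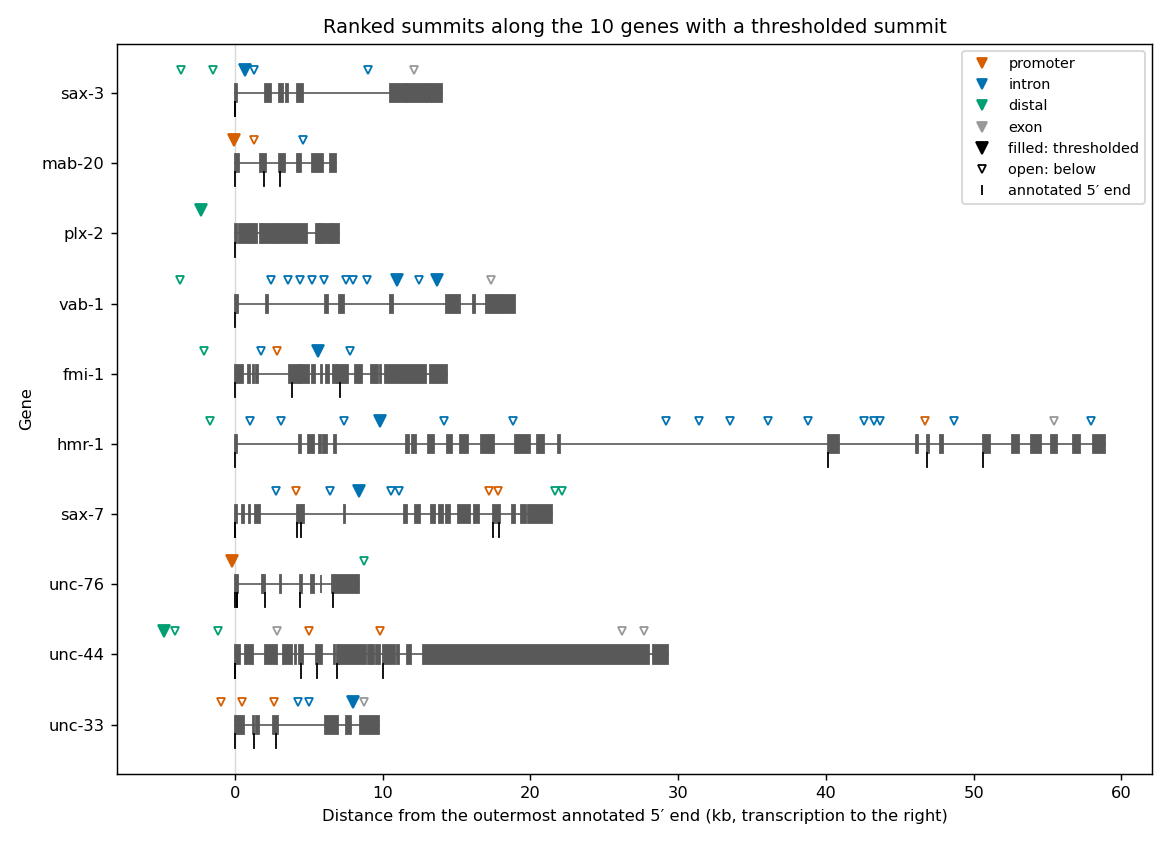
Positions of ranked summits (triangles) along the 10 genes with a thresholded summit, with exons as grey boxes, annotated 5′ ends as ticks below the line and distance in kb from the outermost 5′ end on the x axis. The filled, thresholded summits lie inside the gene at sax-3, vab-1, fmi-1, hmr-1, sax-7 and unc-33, at the 5′ end at mab-20 and unc-76, and upstream of the gene at plx-2 and unc-44.

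Most thresholded summits of these genes lay in introns. Of the 11, 7 (63.6%) were intronic, 2 were in promoters (1000 bp upstream to 200 bp downstream of a 5′ end) and 2 were distal, meaning within 5000 bp of a 5′ end and outside both promoter and gene. Among the gene and summit pairs of all protein-coding genes, 10.9% of the thresholded ones were intronic. A summit is counted there once for each gene whose window holds it, so 626 thresholded summits give 956 distal pairs alone. The members' summits are each counted once, so the 10.9% is in another unit and cannot be set directly against the 63.6%. The ranked summits showed a like split, with 50.9% intronic at the members, against 12.4% of the pairs of all genes, with the same limit. Of the intronic ranked summits, 8.64% (4.25 to 16.8) were thresholded at the members, against 7.53% over all genes. Counted by gene, 2 members (5.71%) had a thresholded promoter summit, against 1.96% of all genes, and 8 members (22.9%) had an intronic or distal one, against 5.28%. An intronic one was found at 6 members (17.1%), against 0.776% of all genes. The members' introns are long, with a median of 246 bp over 516 introns, against 68 bp over the introns of all protein-coding genes. Taken once per summit, the introns with the 7 thresholded summits ranged from 405 to 4728 bp with a median of 3536 bp. The vab-1 intron that holds both its thresholded summits counts for each of them. The introns with the 74 ranked summits below the threshold, taken likewise, had a median of 3262 bp. Over all protein-coding genes, introns with a thresholded summit had a median of 1314 bp. How far intron length accounts for the intronic share was not tested.

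Between promoter summits and intronic or distal ones, the direction of the difference depended on the settings. Of 28 ranked promoter summits, 2 were thresholded (7.14%, 1.98 to 22.6), and of 114 intronic or distal summits, 9 were (7.89%, 4.21 to 14.3), a difference of -0.752 percentage points that turned to 1.65 when the promoter was taken as 500 bp to either side of a 5′ end. For all protein-coding genes the shares were 11.2% of 3552 promoter pairs and 8.65% of 12983 intronic or distal pairs, and the interval of the members' promoter share includes that of all genes. The median pooled signal was 42.96 at the members' promoter summits and 41.4 at their intronic or distal summits, a ratio of 1.04, which became 0.963 in the other ranked list of the series. None of 17 summits in exons was thresholded, which allows a share of up to 18.4% (Wilson upper bound), and 8 of 1376 such pairs were thresholded over all genes.

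**Figure D3:**
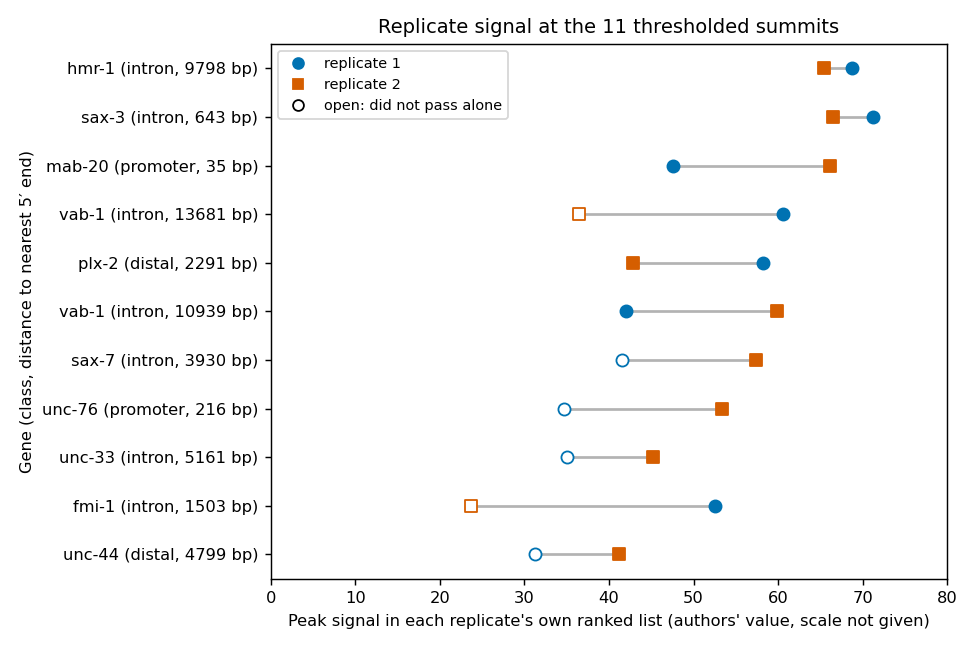
Peak signal of the 11 thresholded summits in each replicate's own ranked list (x axis, from 0; blue circles replicate 1, orange squares replicate 2), ordered from the highest pooled signal at the top; filled markers passed the threshold in that replicate alone. The hmr-1 and sax-3 summits have both values above 65, and at fmi-1 the replicates are farthest apart, at 52.5 and 23.7.

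The replicates differed in which members they called. All 11 thresholded summits had a peak within 100 bp in both replicates' ranked lists, 5 passed in both replicates (hmr-1, sax-3, mab-20, plx-2 and 1 of the vab-1 pair), 2 in replicate 1 alone and 4 in replicate 2 alone. Replicate 1 was the higher at 5 of the 11. The conservative list held 9 of the 11 summits. Over all ranked summits of the members, 102 of 159 had a peak in both replicates, 36 in replicate 1 alone, 19 in replicate 2 alone and 2 in neither. Across the 102 paired summits, which share their libraries, the signals had a Spearman rho of 0.363 and a Pearson r on the log2 scale of 0.534, and across the 91 of them below the threshold rho was 0.131. The thresholded summits of the members had a median pooled signal of 97.4, close to the 102.95 of all 660 thresholded nuclear peaks.

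The share of summits with a SOX word depended on the word. The words CATTGT or CTTTGT, on either strand within 50 bp of the summit, were at none of the 11 thresholded summits (0%, Wilson upper bound 25.9%). Over all 660 thresholded nuclear peaks the share was 20.2%, which is below that bound. Either word was at 30 of the members' 148 summits below the threshold (20.3%, 14.6 to 27.5). All nuclear peaks below the threshold had 16.3%, a share inside that interval. The members' own windows of the same length 300 bp to each side had 8.11%. Another word, CTATTGT, was at 5 of the 11 summits (45.5%, 21.3 to 71.99) and at none of their 22 flanking windows. It shares ATTGT with CATTGT but contains neither CATTGT nor CTTTGT. It lay 5 bp from the summit at hmr-1, 10 bp at plx-2 and sax-7, 11 bp at vab-1 and 37 bp at sax-3, as in the sequences printed above for the last 4. Over all thresholded nuclear peaks it was at 7.58%. Away from tRNA genes it was at 5 of the members' 10 summits, against 9.23% of all thresholded peaks and 1.48% of the flanks of those peaks. At the members' summits below the threshold it was at 8 of 148 (5.41%), against 3.48% of all nuclear peaks below the threshold. This word was picked after the sequences at these summits had been seen, so its share there is a description of them.

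Further words, also chosen after seeing the data, were counted in the same windows, with the 11 summits set against all 660 thresholded nuclear peaks. CCATTGT was at none of the 11, against 5.61%, and at 7 of the members' 148 summits below the threshold (4.73%, 2.31 to 9.44), against 3.07% of all nuclear peaks below it. The bare core ATTGT, which also occurs inside CATTGT and CTATTGT, was at 9 of the 11, all but unc-76 and unc-33 (81.8%, 52.3 to 94.9), against 36.5%, and at 7 of the 22 flanks of the 11. TTTGT, the end of CTTTGT, was at 2 of the 11 (18.2%, 5.14 to 47.7), against 29.2%, and at 6 of the 22 flanks. The 29.2% lies inside that interval. The octamer ATGCAAAT or ATGCTAAT was at 1 of the 11, fmi-1, where it began 42 bp before the summit, against 2.12%. GAGAGA was at 3 of the 11 (27.3%, 9.75 to 56.6), against 21.97%, a share inside that interval. All 3 ranked summits of rig-3, below the threshold, held CTATTGT or CCATTGT, which was noticed after the values were seen. A match is a run of letters in the window and does not show that SOX-2 binds it.

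**Figure D4:**
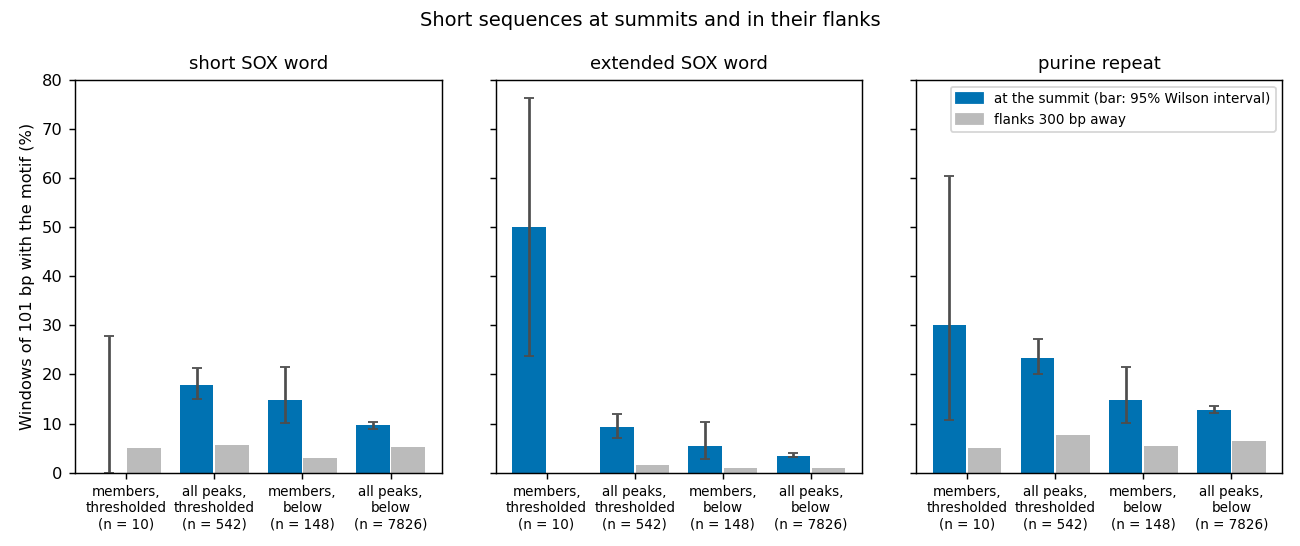
Share of 101 bp windows (y axis, percent) that hold CATTGT (left panel, short SOX word), CTATTGT (middle panel, extended SOX word) or GAGAGA (right panel, purine repeat) at summits (blue, with Wilson 95% intervals) and in flanks 300 bp away (grey), for the members' thresholded summits away from tRNA genes, all such thresholded peaks, the members' summits below the threshold and all such peaks. The members' thresholded summits hold CTATTGT in 5 of 10 windows and CATTGT in none, with wide intervals. CTATTGT, which does not contain CATTGT, and GAGAGA were chosen after the data had been seen.

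Other genes of the same pathways were counted by the same rule. A thresholded summit was at 10 of the 35 members (28.6%), against 10 of 98 further guidance and adhesion genes (10.2%) and 7.09% of all genes, and a ranked one at 32 of 35, against 73 of 98. The members held 22.03 ranked and 1.52 thresholded summits per 100 kb, against 13.02 and 0.842 for the further genes, whose thresholded density was 1.28 times that of all protein-coding genes. Whether the lists differ was not tested, and the members and lists were chosen with earlier results of these data known. By list, thresholded summits were at 2 of 25 guidance cues, receptors and regulators, 1 of 14 Wnt and planar polarity genes, 5 of 30 adhesion genes and 2 of 29 cytoplasmic effectors. Of the guidance genes, kal-1, an anosmin-family extracellular protein, had 3 thresholded summits, the strongest with a pooled signal of 227 and replicate signals of 114.97 and 110.2, above any of the 35, and hst-6, a heparan sulfotransferase, had 1 at 88.0. The Wnt-receptor kinase cam-1 had 2, at 139.9 and 78.2. The strongest adhesion genes were hmp-2, the β-catenin that binds HMR-1, at 211 (97.99 and 109.3), the NCAM-family ncam-1 at 113, the integrin subunit pat-3 at 99.9 and the immunoglobulin gene igcm-1 at 94.1. The cytoplasmic ones were the kinase sax-1 at 108 and the kinesin heavy chain unc-116 at 77.1.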

How the data were processed

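Both samples are ChIP-seq of SOX-2 in whole embryos of 1 group. Per the deposited text list, the authors made the peak lists on ce11 from the alignments of each replicate, or of both, and a control, which was not analysed here. The names of the aligner and peak caller were not given in the sources used here. Each peak's signal is the authors' deposited value, on a scale that was not stated, and the authors' deposited −log10 IDR was turned into a percent. In the series' ranked lists, 4 unnamed columns of signal were not used. Per the values, every thresholded peak has an IDR of at most 0.01. In the ranked list, 773 peaks met that bound, against 677 in the thresholded list, so the bound alone does not define the list. Why the others are absent was not examined. No summit of the members met the bound without being in the thresholded list.

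Summits were placed on the Ensembl release 115 annotation of WBcel235, the assembly ce11, and sequences were read from the NCBI genome of that assembly. Introns are those of the longest transcript that spans the summit. Replicate peaks were paired within 100 bp. Wilson 95% intervals of shares cover counting error only. With 1 group there was nothing to test, so counts are given beside those of all genes. The members and lists were chosen with earlier results of these data known. Genes with a thresholded summit are described in full, as are the 5 ranked-only members with the strongest summit, and up to 4 genes of each further list by strongest thresholded summit; other members are given by their strongest summit. Of 99 further genes listed, 98 matched the annotation. Alternatives used other windows, promoter bounds, peak lists, motifs and pairings. Functions were tested on simulated data. Python 3.11.15, pandas 2.3.3, NumPy 2.4.6, SciPy 1.17.1 and matplotlib 3.10.9 were used.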

Additional observations from a re-analysis of the deposited data

How the results depend on the processing

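Of 31 alternatives, 17 left their result on the same side and near the main value. The 10 members with a thresholded summit became 8 with windows of 1000 or 2000 bp, which lose plx-2 and unc-44, 9 in the conservative list and 9 away from tRNA genes. They became 6 when each summit went only to the gene with the nearest 5′ end within 5000 bp, without hmr-1, sax-3, vab-1 and unc-33. Both vab-1 summits lie more than 5000 bp from any protein-coding 5′ end, and for 1 of them the nearest is that of vab-1 itself. Among peaks at or above the median signal, 4 members remained (hmr-1, mab-20, sax-3 and vab-1). In single-replicate lists the count ranged from 6 (without replicate 2) to 9 (without replicate 1). The density ratio of 2.32 was 2.66 with windows of 1000 bp, 1.75 among peaks at or above the median signal, and 1.76 to 2.23 in single-replicate lists. The difference between promoter and intronic or distal shares, -0.752 points, was 1.65 with promoters of 500 bp to either side, -2.08 with 2000 bp upstream, and -0.848 to 0.5 in single-replicate lists. The ratio of median signals, 1.04, was 0.963 in the other ranked list and 0.971 to 1.08 in the replicates' lists, so neither comparison has a settled direction. The share of ranked summits with CATTGT or CTTTGT, 18.9%, was 28.3% within 100 bp of the summit, 12.6% for CTATTGT or CCATTGT and 8.18% for CTATTGT alone, both words being added after seeing the data. The cause of these shifts was not tested. No paired analysis was possible because there is only 1 group. Without read counts, what depth limits is unknown.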
